A study of Saccharomyces cerevisiae with 2 samples.

Results

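Convergent intergenic regions are the stretches between open reading frames (ORFs) that face each other. Where both ORFs are expressed genes, the 3′ ends of 2 mRNAs meet in such a region. The regions were taken as 100 bp segments on the 16 nuclear chromosomes that overlap no ORF. The nearest ORF to the left of such a segment lies on the plus strand, and the nearest to the right on the minus strand. Segments within 20 kb of a chromosome end and those of the U1 and U2 snRNA loci were left out. This gave 3671 segments of the 121639 in the table, 3.04% of the nuclear segments, and they fell into 1098 regions, each the run of segments between 1 pair of neighbouring ORFs. The median region was 2 segments long, 405 regions (36.9%) were a single segment and 67 had 10 segments or more. The same rule with other strands gave 1369 divergent regions, between 2 ORF starts, and 2577 tandem regions, between ORFs of the same strand.

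RNA was purified through TAP-tagged Cbc2, a subunit of the nuclear cap binding complex (CBC), from trf4Δ and wild-type cells of the SK1 background after 6 h in sporulation medium. SK1 is a laboratory yeast strain that enters meiosis with good synchrony. The trf4Δ cells lack *TRF4*, the poly(A) polymerase subunit of TRAMP, and were diluted into acetate medium at a higher density than wild type before sporulation, so density and sequencing lane cannot be told apart from genotype. There was 1 library per genotype, so replicate error is unknown for every difference given here and no p-value was computed; every interval on a ratio or a share covers counting error only. The trf4Δ library held 29687088 reads over all segments and the wild-type library 22092372, with medians of 28 and 33 reads per nuclear segment. Each sum exceeds the mapped reads that the paper reports for that library. If reads at a border were counted in both segments that meet there, the intervals are too narrow even for counting error. Segments without a read made up 6.83% in trf4Δ and 7.90% in wild type. U1 and U2, outside the regions described here, took 24.6% of the trf4Δ reads over all segments and 18.2% of those of wild type. The deleted gene, listed as *PAP2*, had 1 read in the ORF table in trf4Δ, against 346 in wild type with the scaling of that table undone; the 19 segments that overlap it had 128 reads in trf4Δ, against 518 in wild type. A factor of 1.34 was applied to wild type so that the 2 totals match, and the resulting values are called normalised reads.

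RNA polymerase II stops in convergent regions by cleavage and polyadenylation of mRNAs, often with an AU-rich element such as TATATA ahead of the cleavage site. Short noncoding transcripts end by another route, in which Nrd1 and Nab3 bind the new RNA and Sen1 releases the polymerase. TRAMP then adds a short poly(A) tail, and the nuclear exosome either trims the RNA, as for small nucleolar RNAs (snoRNAs), or degrades it, as for cryptic unstable transcripts (CUTs). snoRNAs guide the chemical modification of ribosomal RNA, box C/D snoRNAs for methylation of ribose and box H/ACA snoRNAs for pseudouridine. Many are independent genes transcribed by polymerase II, and some of these lie between the ends of 2 ORFs.

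The RefSeq annotation of the S. cerevisiae reference R64, a newer build than the one in the tables, was used only for annotation and sequence. Of the 1098 convergent regions, 978 had both ORFs in R64 in the same order, and 958 of these had the same gap length in both builds. The other 120 regions, with a flanking ORF outside R64, were not searched for RNA genes. In the regions searched, R64 places 15 snoRNA genes in 13 convergent regions, 9 of the H/ACA and 6 of the C/D type. These genes are shown because their regions had the highest ratio of trf4Δ to wild-type reads among the classes of convergent region. Of the 9 H/ACA genes, 6 carry ACA exactly 3 bases before the annotated 3′ end, the hallmark of this class. The last 30 bases of 4 of them, from 5′ to 3′ on the strand of the gene with that ACA in capitals, are:
SNR37 (chrX:228094-228123, minus strand): taagcgactcttcttcatgataagACAgtt
SNR34 (chrXII:899353-899382, plus strand): gaattgggatgtcgaagaaagtctACAtta
SNR32 (chrVIII:381698-381727, plus strand): agatattgggaatcagctgtatctACAttt
SNR83 (chrXIII:626625-626654, plus strand): aaattgggactaatattaagggcgACAgtt

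The stretch past the 3′ end of these genes is where Nrd1 and Nab3 act on yeast snoRNA genes. The 30 bases that hold the most matches to GTAG and GTAA (known to bind Nrd1) or TCTT and CTTG (known to bind Nab3) are printed for 4 genes, on the strand of the gene and with every match in capitals. Matches may overlap, as in TCTTG:
SNR37 (chrX:228032-228061, minus strand, 33 to 62 bases past the gene end): tGTAGtgcctacggggatggaCTTGTCTTG
SNR86 (chrXIII:762071-762100, minus strand, 10 to 39 bases past): atcacgcttaataatgtcaaTCTTGTCTTG
SNR34 (chrXII:899395-899424, plus strand, 13 to 42 bases past): cgtactgtcTCTTGcagGTAAaaagTCTTG
SNR4 (chrV:424884-424913, plus strand, 1 to 30 bases past): tattttgaatTCTTacGTAAaTCTTGgaat
In the first 150 bases past the gene, TCTT was found after 14 of the 15 snoRNA genes in convergent regions (93.3%), after 92.1% of all 76 snoRNA genes and after 66.5% of 6002 protein-coding genes. CTTG was found after 12 of the 15 genes, 69.7% of all snoRNA genes and 34.8% of protein-coding genes, GTAG after 7 of the 15, 46.1% and 28.99% of those sets, and GTAA after 9 of the 15, 53.9% and 54.7% of them. Matches were counted on the strand of the gene and describe letters only, not binding.

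Convergent segments held a small part of either library, and more of trf4Δ than of wild type. They took 2.51% of nuclear reads in trf4Δ (95% Wilson interval 2.50% to 2.51%) and 1.72% in wild type (1.72% to 1.73%). In normalised reads this was 736592 for trf4Δ and 507132 for wild type, a ratio of 1.45. The same ratio was 2.94 for divergent segments, which held 10.6% of trf4Δ and 3.60% of wild-type reads, and 2.25 for tandem segments, which held 10.3% of trf4Δ and 4.56% of wild-type reads. A typical convergent segment differed little, with a median of 17 reads in trf4Δ, against 14.8 normalised reads in wild type.

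The 13 regions that hold a snoRNA gene had the highest ratio among the classes of convergent region. Together they had 274491 reads in trf4Δ, against 42756 normalised reads in wild type, a ratio of 6.42, and made up 37.3% of convergent reads in trf4Δ, against 8.43% in wild type. Without them, the other convergent regions held 462101 reads in trf4Δ, against 464376 normalised reads in wild type, a ratio of 0.995. The ratio was 1.76 in regions with a flanking ORF outside R64, not searched for RNA genes, and 1.71 in those with a tRNA gene. Regions with no gene had 0.790 and those with an snRNA or RNase P RNA gene 0.769. The value of 0.995 is a balance of these classes. It also holds for this scaling only: with the median of all compared segments set to 0, the ratios were 13.7 for snoRNA regions and 2.12 for the others. The largest of the 13, between *PAM16* and *GSM1*, weighed heavily: with it left out, the ratio of the remaining snoRNA regions was 3.72 and their share of convergent reads was 23.8% in trf4Δ and 7.71% in wild type. snoRNA regions of the other arrangements had similar ratios, 6.14 for 12 divergent and 5.31 for 21 tandem regions.

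Regions were compared where the mean per segment exceeded 64 normalised reads in at least 1 library, which kept 349 of the 1098 convergent regions (31.8%). Of these, 59 (16.9%, exact 95% interval 13.1% to 21.3%) were more than 4-fold higher in trf4Δ, against a background of 35.5% over all 2244 intergenic regions compared. Another 15 (4.30%, 2.43% to 6.99%) were more than 4-fold lower, against a background of 2.72%. Among divergent regions 259 of 676 (38.3%, 34.6% to 42.1%) were more than 4-fold higher and 24 lower, and among tandem regions 479 of 1219 (39.3%, 36.5% to 42.1%) and 22. The median log2 difference of the convergent regions was -0.27, with quartiles of -1.22 and 1.31, beside 1.37 for divergent, 1.32 for tandem and 1.11 for all intergenic regions. The share of higher convergent regions lay below those of divergent and tandem regions under every alternative that gave all 3 shares, but its size and the sign of the median depended on the scaling. With the median of all compared segments set to 0, a shift of 1.09 on the log2 scale, 279 convergent regions were still compared, of which 112 were more than 4-fold higher and 0 lower. This was 40.1%, against 66.2% of divergent and 64.3% of tandem regions, and the median was 1.43.

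**Figure D1:**
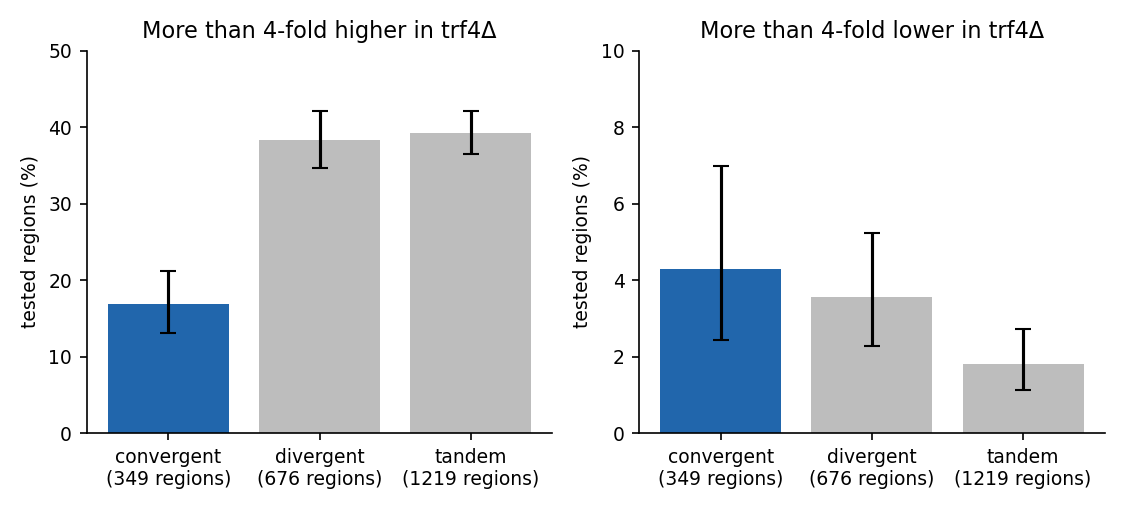
Percentage of compared regions more than 4-fold higher (left) and more than 4-fold lower (right) in trf4Δ than in wild type, for convergent, divergent and tandem regions, with exact 95% intervals that cover the number of regions only. Convergent regions stand at 16.9% higher, against 38.3% and 39.3% for the others, and at 4.30% lower, against 3.55% and 1.80%.

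Among single segments, too, the convergent share was the lowest of the 3 arrangements. Of 1167 convergent segments with more than 64 normalised reads in either library, 378 (32.4%) were more than 4-fold higher in trf4Δ and 57 (4.88%) lower, against backgrounds of 16.3% and 16.6% over all 57412 nuclear segments compared, most of which overlap ORFs. The values were 42.4% and 4.48% for divergent and 42.1% and 4.04% for tandem segments. CUTs, called by joining segments more than 4-fold higher in trf4Δ into stretches of at least 300 bp, numbered 1573, of which 101 touched a convergent segment and 31 lay wholly between the ORFs. They overlapped 98 convergent regions (8.93%), against a background of 22.4% of all intergenic regions. Of the 101, 70 also ran over an ORF.

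Length separated the convergent regions. Of 90 compared regions of a single segment, 10 (11.1%) were more than 4-fold higher in trf4Δ, and of 136 regions of 2 to 3 segments, 15 (11.0%). The share was 23.2% of 82 regions of 4 to 9 segments and 36.6% of 41 regions of 10 segments or more, with medians of -0.70, -0.80, 0.92 and 1.43 on the log2 scale from the shortest to the longest. In divergent regions the shares were 45.7%, 25.0%, 40.2% and 43.0% over the same lengths, so the arrangements lay closer to each other in the longest class than in the shortest.

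Distance from the ORF end showed where in a region the libraries differed. Within the first 100 bp past an ORF end, 1783 convergent segments had a median of 15 reads in trf4Δ, against 16.1 normalised reads in wild type, and 21.5% of the 520 compared were more than 4-fold higher in trf4Δ, with a median log2 difference of -0.47. From 101 to 200 bp the share was 37.3% and the median 1.17, and from 301 to 400 bp they were 46.2% and 1.83, where all segments had medians of 39.5 reads in trf4Δ, against 22.8 in wild type. Divergent segments gave 31.7% and 0.46 in the first 100 bp and 47.7% and 1.87 from 301 to 400 bp. Reads near a border may be counted in both segments that meet there, so the first step may share reads with the ORF. Within this first step the shares differed by the length of the region. Of the compared segments there, 11.1% of 90 in regions of a single segment were more than 4-fold higher, 15.3% of 255 in regions of 2 to 3 segments, 29.5% of 129 in regions of 4 to 9 and 54.3% of 46 in regions of 10 or more, with medians of -0.70, -0.80, 0.61 and 2.03. From 101 to 200 bp the shares were 23.5% of 34, 38.1% of 126 and 46.3% of 41 in regions of 2 to 3, 4 to 9 and 10 or more segments. This split was chosen after the data had been seen.

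**Figure D2:**
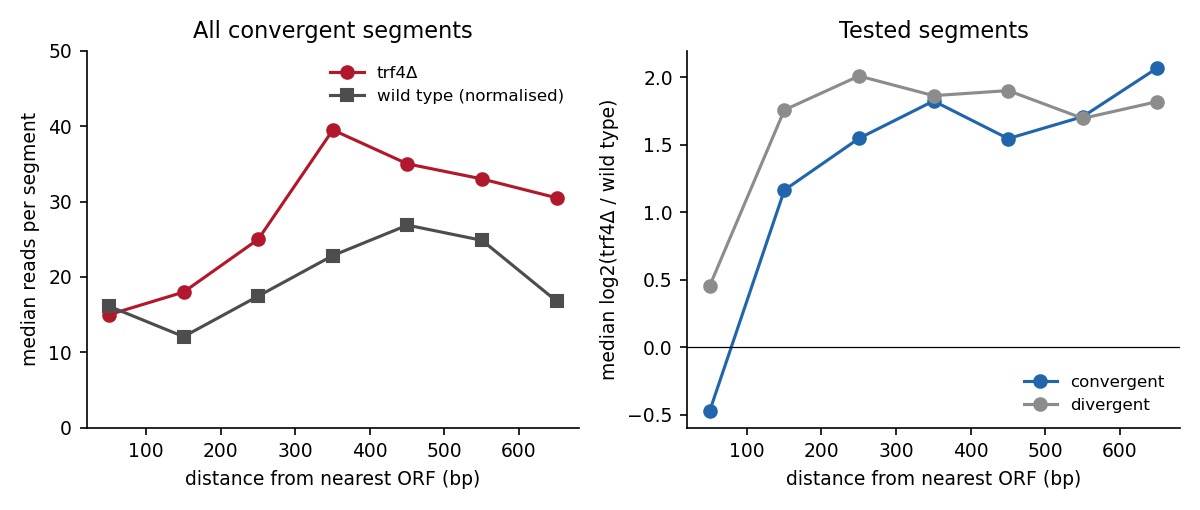
Left, median reads per 100 bp segment of all convergent segments in trf4Δ and in wild type (normalised) by distance from the nearest ORF in bp. Right, median log2 ratio of trf4Δ to wild type of the compared segments, for convergent and divergent regions; the convergent line starts at -0.47 next to the ORF and lies at 1.17 from 101 to 200 bp.

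The region with most trf4Δ reads lay between *PAM16*, a subunit of the mitochondrial import motor, and *GSM1*, a putative zinc cluster protein (chromosome X, 227801 to 229000 in the coordinates of the tables, which do not name their build; SGD1.01 is a build the study mapped to). It had 130243 reads in trf4Δ, against 2959 reads, 3976 after normalisation, in wild type, a ratio of 32.8 (31.6 to 33.98), and alone held 17.7% of convergent trf4Δ reads. R64 has *SNR37*, an H/ACA snoRNA gene, on the minus strand from 318 to 703 bases past the end of *PAM16*. Reads lay on the side of *PAM16*: the 7 segments from 29 to 728 bp past *PAM16* had 5156 reads or more in trf4Δ apart from the first with 1138, and the 5 segments from 729 bp on had at most 37. The peak of 45117 reads in trf4Δ, against 856 normalised reads in wild type, lay at 229 to 328 bp, and the segment beyond it towards *PAM16*, at 129 to 228 bp, had 16324 in trf4Δ and 293 in wild type, a ratio of 55.7. The sequence with GTAG, CTTG and TCTT printed for SNR37 lies in R64 33 to 62 bases past the 3′ end of the gene, that is, on this side.

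Other snoRNA regions were among the 10 with most trf4Δ reads. The region between *FAA4*, a fatty acyl-CoA synthetase gene, and *RKR1*, a ubiquitin ligase gene, holds *SNR86* and had 27895 reads in trf4Δ, against 3924 normalised reads in wild type, a ratio of 7.11. Between *RPS26B*, for a ribosomal protein, and *PMD1* lies *SNR4*, with 22714 reads in trf4Δ against 4057 in wild type (5.599). The region of *SNR11*, between *RPL36A* and *YMR194C-B*, had 20681 in trf4Δ and 4323 in wild type (4.78), and that of *SNR34*, between *RPS29A* and *STE23*, had 13875 in trf4Δ and 951 in wild type (14.6). These 4 and the *SNR37* region were the 5 snoRNA regions past 4-fold, out of 12 compared (41.7%, beside the background of 35.5%), and no snoRNA region was lower in trf4Δ. By the mean of segment log2 differences the *SNR4* (1.63) and *SNR11* (0.59) regions fell below 4-fold and the *SNR3* region (3.20) passed it. The *SNR3* region (*YJR128W* to *YJR129C*) had 26818 reads in trf4Δ, against 10041 in wild type, a difference of 1.42 on the log2 scale, and the *SNR32* region (*YHR140W* to *RPL42B*) 15134 in trf4Δ and 7631 in wild type, 0.99 on the same scale. The remaining 5 compared regions, with *SNR83*, *SNR71*, *SNR63*, *SNR46* and the cluster of *SNR61*, *SNR55* and *SNR57*, had log2 differences between 0.68 and 1.59. *SNR36*, between *SER1* and *GSP2*, was too low to be compared, with 503 reads in trf4Δ, against 120 in wild type over 8 segments.

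Within snoRNA genes the ratio was not even. Segments were placed inside a gene or in the 200 bp past its 3′ end by their distance from the left ORF, an approximate step because that distance comes from R64 for the gene and from the tables for the segment; the gap had the same length in both builds for all of these regions. This comparison was chosen after the profiles had been seen. Of the 15 genes, 7 had segments of both kinds with wild-type reads, and in 7 of 7 the ratio of trf4Δ to wild type was higher past the 3′ end than inside the gene. The medians were 13.8 past the end and 4.24 inside. Only segments between the ORFs were used, so stretches past a gene that run over an ORF were left out. Over the adjoining ORF, *SNR11* had lower ratios past its end (3.19 and 2.40) than inside (5.12). The same was seen for *SNR46* (0.827 and 0.435, against 0.843) and *SNR36* (1.53 and 0.567, against 2.80). For *SNR3* they were higher (14.5 and 15.4, against 2.45). Segments that cross the 3′ end of these genes were left out of both parts. Their ratios were 4.46 for *SNR11*, 1.08 for *SNR46*, 7.52 for *SNR36* and 7.02 for *SNR3*. For *SNR46* and *SNR36* the ratio at the end itself was thus higher than inside, and only farther segments were lower. The result thus covers the 7 genes only. The 5′ side of the genes was not compared as a set, and single segments there went both ways. For *SNR63*, ratios 513 to 612 and 613 to 712 bp past *RPL31A* were 3.65 and 19.9, against 1.18 inside. For *SNR3*, those 227 to 326 and 327 to 426 bp past *YJR128W* were 16.6 and 85.6, against 2.45. With few reads, *SNR34* had 0.595 at 180 to 279 bp past *RPS29A*, against 12.5, and *SNR4* 1.12 at 194 to 293 bp past *RPS26B*, against 4.24.

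*SNR32* showed the widest gap. Its segment past the end had 1677 reads in trf4Δ, against 18.8 normalised reads (14 reads) in wild type, a ratio of 89.1 (53.0 to 163), while its segment inside the gene had 6872 in trf4Δ and 4471 in wild type, a ratio of 1.54. For *SNR63* the ratios were 9.06 (5.52 to 15.9) past the end and 1.18 (0.970 to 1.44) inside. For *SNR4* they were 12.03 and 4.24, for *SNR83* 8.33 and 2.18, for *SNR34* 28.5 and 12.5, for *SNR86* 13.8 and 6.81, and for *SNR37* 31.5 (28.5 to 34.8) and 26.1 (24.9 to 27.4). The counting intervals of the pairs did not overlap in any of the 7 genes. The regions *YHR140W* to *RPL42B* and *YMR182W-A* to *SSO2*, of *SNR32* and *SNR83*, were below 4-fold as a whole, so the sum over a region left out the contrast between its parts.

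**Figure D3:**
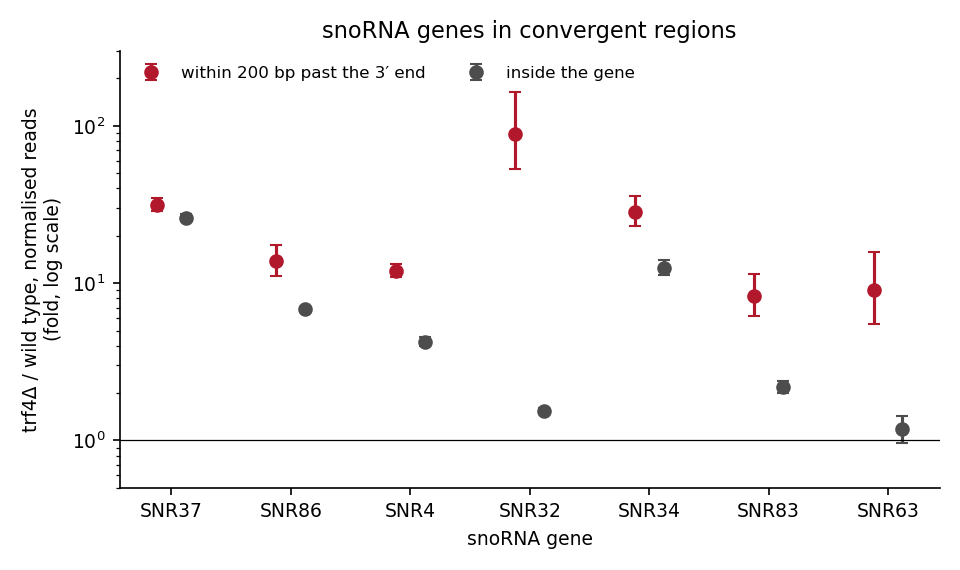
Ratio of trf4Δ to wild-type normalised reads (log scale) within 200 bp past the 3′ end and inside the gene, for the 7 snoRNA genes in convergent regions with both kinds of segment; bars are exact 95% intervals that cover counting error only. The ratio past the end is the higher in all 7 genes, from 8.33 for SNR83 to 89.1 for SNR32.

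The convergent regions also hold RNAs made by RNA polymerase III, which carry no cap of the kind that the CBC binds. The *SNR6* region, between *REX3* and *YLR108C*, carries the gene for U6 snRNA and had 42457 reads in trf4Δ, against 41289 normalised reads in wild type, a difference of 0.04 on the log2 scale. Its 2 segments with most reads had 27998 and 14370 in trf4Δ, against 26984 and 14231 in wild type. The *RPR1* region, between *TIM9* and *YEL020C*, carries the gene for the RNA of RNase P and had 31549 in trf4Δ and 55423 in wild type, -0.81 on the log2 scale. The sign of this difference was not stable, being 0.28 with the median of all compared segments set to 0 and 0.05 by the mean of segment log2 differences. At its edge the direction turned: the segment next to *TIM9* had 3027 reads in trf4Δ, against 137 in wild type, and the last 3 segments over *TIM9*, a mitochondrial import chaperone gene, had 4449, 7082 and 11802 in trf4Δ against 294, 552 and 798 in wild type. There were 33 regions with a tRNA gene and no snoRNA, snRNA or RNase P RNA gene. Of these, 12 were compared and 3 (25%, beside the background of 35.5%) were more than 4-fold higher. None of the 12 was more than 4-fold lower.

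**Figure D4:**
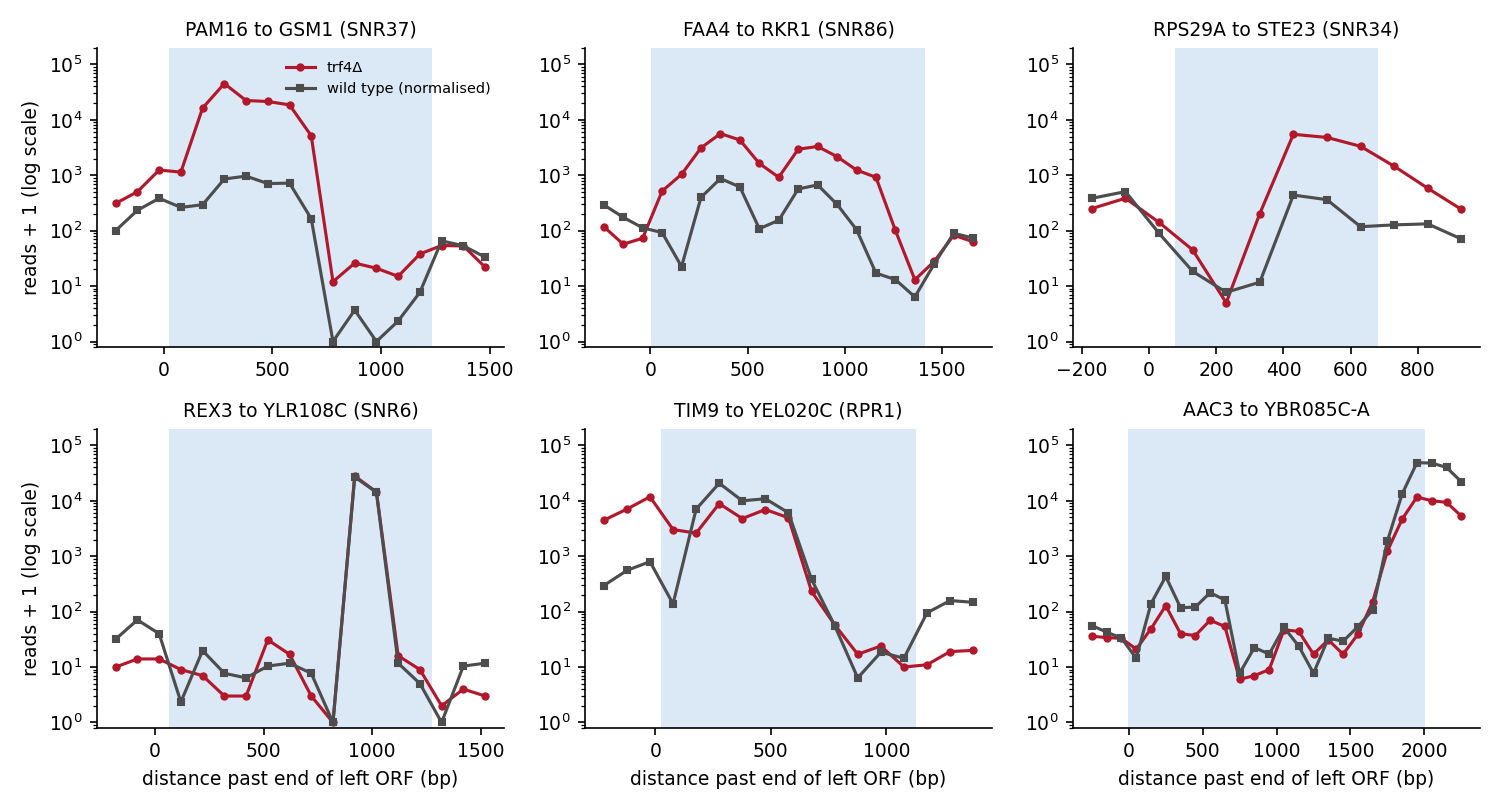
Reads per 100 bp segment, plus 1, on a log scale, by distance in bp past the end of the left ORF in 6 convergent regions; trf4Δ in red, wild type (normalised) in grey, and the convergent segments shaded. trf4Δ lies above wild type over SNR37, SNR86 and SNR34, on it over SNR6 and below it over RPR1 and towards YBR085C-A.

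Regions in which R64 has no gene were the largest class. With the 2 totals matched, their median difference was below 0, and few of those compared were more than 4-fold higher in trf4Δ. There were 928, of which 264 could be compared: 35 (13.3%) were more than 4-fold higher and 15 lower, with a median log2 difference of -0.67. In sum they had 210482 reads in trf4Δ, against 266295 normalised reads in wild type, a ratio of 0.790. With the median of all compared segments set to 0, the direction turned: 61 of 204 (29.9%) were more than 4-fold higher, the median was 1.014 and the ratio 1.68. They made up 28.6% of convergent reads in trf4Δ, against 52.5% in wild type. All 15 regions more than 4-fold lower were of this class. The 120 regions with a flanking ORF outside R64 gave 16 higher of 58 compared, with a median of 1.25.

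**Figure D5:**
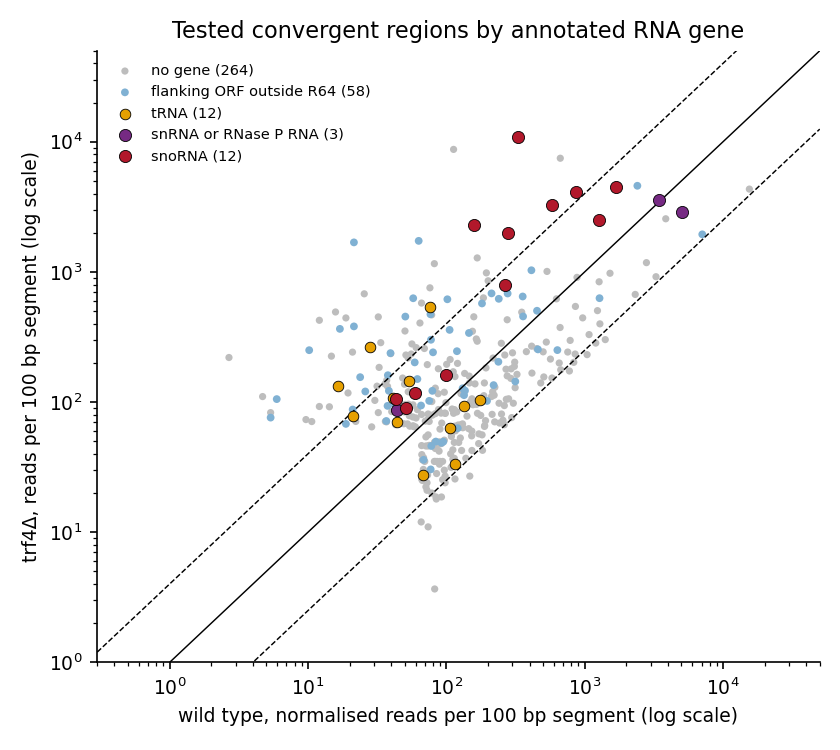
Each of the 349 compared convergent regions by normalised wild-type reads per segment (x, log scale) and trf4Δ reads per segment (y, log scale), coloured by the RNA gene R64 has between its ORFs, with the number of regions in brackets. The solid line marks equality and the dashed lines 4-fold; 5 snoRNA regions lie above the upper dashed line, and the points below the lower one are regions without an RNA gene.

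Among the 10 regions with the largest differences, *PAM16* to *GSM1* was the only one in which an RNA gene was found. Some of the 10 have a flanking ORF outside R64, and in those no RNA gene was looked for. Between *OPI9* and *YLR339C* (chromosome XII, 805301 to 805700) there were 6744 reads in trf4Δ, against 64 reads, 86.0 after normalisation, in wild type. The difference was 6.29 on the log2 scale (5.94 to 6.67). The 4 segments had 1648, 2741, 2228 and 127 reads in trf4Δ, against 44.3, 20.2, 18.8 and 2.69 normalised reads in wild type. All of them exceeded wild type. For ORF ends the reads given are unscaled, and the log2 values use normalised reads. The last 300 bp of an ORF were summed over every segment that touches them, so a border segment also covers bases between the ORFs. Those of *OPI9* had 745 reads in trf4Δ against 370 in wild type, 0.58 on the log2 scale. Of the 745, 631 lay in the border segment, against 18 in wild type, and the segment before it had 19 in trf4Δ against 66 in wild type. The last 300 bp of *YLR339C* had 550 in trf4Δ against 842 in wild type, or -1.04. OPI9 and YLR339C are among the ORFs that R64 does not list.

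Other regions were the edge of a difference that ran into an ORF. Their reads are given unscaled, and the log2 values use normalised reads. The single segment between *BPL1*, the biotin-protein ligase gene, and *RPO21*, for the largest subunit of RNA polymerase II (chromosome IV, 205201 to 205300), had 8732 reads in trf4Δ, against 84 in wild type, a difference of 6.27 on the log2 scale. The last 300 bp of *BPL1* had 106428 reads in trf4Δ, against 779 in wild type, a difference of 6.67 on the log2 scale, and those of *RPO21* 321 in trf4Δ against 155 in wild type, or 0.62. Between *GAT3*, a GATA family gene, and *PPR1*, the activator of pyrimidine genes, 2676 of the 2715 trf4Δ reads lay in the segment next to *GAT3*, whose last 300 bp had 11012 reads in trf4Δ against 490 in wild type. Its log2 difference was 4.73 from summed reads and 0.97 by the mean of segment log2 differences.

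Of the other regions with the highest differences, the reads given are unscaled, and the log2 values use normalised reads. *PSD2* to *MSM1* had 850 reads in trf4Δ, against 18 in wild type (log2 5.14). *YPR158W-B* to *YPR158C-D*, whose ORFs belong to Ty elements, had 4430 in trf4Δ against 106 in wild type (4.96), with 0 reads in both libraries at both ORF ends; by the mean of segment log2 differences it was 1.35. *YJL120W* to *YJL119C* had 1732 in trf4Δ against 47 in wild type (4.78), *YBL073W* to *RPS8A* 1252 in trf4Δ against 38 in wild type (4.62), and *YLR143W* to *ACF2* 886 in trf4Δ against 28 in wild type (4.56). *RPS23B* to *SPN1* had 220 reads in trf4Δ, against 2 in wild type, a ratio of 81.9 whose counting interval ran between 22.4 and 680.

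The lowest differences among the 15 lower regions were at sites with few trf4Δ reads. Between *HXK2*, for hexokinase 2, and *RTG2*, a regulator of the retrograde pathway (chromosome VII, 25401 to 25700), there were 11 reads in trf4Δ, against 184 reads, 247 after normalisation, in wild type, a difference of -4.49 on the log2 scale (-5.52 to -3.62). The segment next to *HXK2* had 10 reads in trf4Δ against 239 normalised reads in wild type. The last segment over *HXK2* had 42 in trf4Δ against 761 normalised reads in wild type. For the regions that follow, the reads given are unscaled, and the log2 values use normalised reads. *STE50* to *RRP7* had 11 reads in trf4Δ, against 55 in wild type (log2 -2.75), and *CLB4* to *YLR211C* 36 in trf4Δ against 147 in wild type (-2.46). *ORC1* to *TEM1* had 27 in trf4Δ against 110 in wild type (-2.45), and *YNR063W* to *YNR064C* 56 in trf4Δ against 206 in wild type (-2.31). With the median of all compared segments set to 0, *HXK2* to *RTG2* stayed lower at -3.40 on the log2 scale but fell under the read cut-off. Of the 15 lower regions 7 were still compared under that scaling, with differences between -1.36 and -0.96.

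The regions with most wild-type reads, apart from *RPR1* and *SNR6*, were all lower in trf4Δ by less than 4-fold. *AAC3* to *YBR085C-A* had 18372 reads in trf4Δ, against 65540 normalised reads in wild type (log2 -1.83), *SDH4* to *CSN9* 8654 in trf4Δ against 30997 in wild type (-1.84), and *SML1* to *YML057C-A* 5830 in trf4Δ against 21236 in wild type (-1.86). *AAC3* encodes an ADP/ATP carrier, *SDH4* a membrane anchor of succinate dehydrogenase and *SML1* an inhibitor of ribonucleotide reductase. At each of these 3, an adjoining ORF end was lower to a like degree: -2.16 at *YBR085C-A*, -2.02 at *SDH4* and -2.28 at *SML1* on the log2 scale. The median over all compared segments that overlap an ORF was -1.31.

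Over the whole set, the difference in a region went with that at the ORF ends beside it. Of the 90 flanking ORF ends with enough reads beside the 59 higher regions, 29 (32.2%) were also more than 4-fold higher in trf4Δ, against a background of 18.5% over 4500 nuclear ORF ends, and 2 were lower, against a background of 13.3%. Beside the 275 regions on neither side of the threshold, 27 of 467 ends (5.78%) were higher and 79 lower, and beside the 15 lower regions 0 of 24 were higher and 13 lower. By region, 34 of the 59 higher regions had no flanking end more than 4-fold higher, 21 had 1 and 4 had 2. Across the 242 regions with enough reads at both ends, the Spearman correlation of the region's log2 difference with the mean of its ends was 0.70, and that of reads per segment was 0.58 in trf4Δ and 0.63 in wild type. The border segment of an ORF end also covers bases between the ORFs, so ends and regions are not separate measures. How much of the relation comes from that segment was not tested. The points share their 2 libraries and may share reads counted at the border, and regions are not replicates. Nothing stated says that reads were counted by strand, so readthrough of an ORF and a transcript antisense to it cannot be told apart.

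The 5 longest regions had few reads. *FLO5*, a flocculin gene, to *YHR212C* spans 90 segments and had 1746 reads in trf4Δ, against 351 normalised reads in wild type (log2 2.32), of which 539 in trf4Δ and 49.7 in wild type lay in the segment 482 bp past *FLO5*. *NCE103*, the carbonic anhydrase gene, to *YNL035C* had 1048 in trf4Δ against 462 in wild type over 80 segments (1.18), *SWH1* to *YAR047C* 260 in trf4Δ against 458 in wild type over 52 (-0.82), and *YCR095W-A* to *HMRA2*, at a silent mating-type cassette, 302 in trf4Δ against 458 in wild type over 33 (-0.60). *MID2* to *RPS25B*, with 3 snoRNA genes, had 5772 in trf4Δ against 3609 in wild type over 36 segments (0.68). With the median of all compared segments set to 0, *SWH1* to *YAR047C* (0.27) and *YCR095W-A* to *HMRA2* (0.49) turned positive, and by the mean of segment log2 differences *FLO5* to *YHR212C* was 0.01 and *NCE103* to *YNL035C* -0.14. None of the 5 but *MID2* to *RPS25B* reached the mean of 64 reads per segment. Long runs of segments without a read in either library lower such means. One ran from 562101 to 567600 between *NCE103* and *YNL035C*, another from 198901 to 201400 between *SWH1* and *YAR047C*. If the tables hold uniquely mapped reads, repeated sequence would receive none. Whether these runs are repeated sequence was not tested.

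Reads were unevenly spread over the convergent regions in both libraries. The 10 regions with most reads held 47.5% of convergent reads in trf4Δ, against 50.0% in wild type, and the 50 with most reads 77.5% in trf4Δ and 73.0% in wild type. In trf4Δ 7 of the 10 were snoRNA regions. At the other end, 22 regions had no reads in either library, and whether reads could be mapped there was not tested.

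The sequence of convergent regions set them apart from other intergenic regions without regard to reads. TATATA, searched on both strands in the central 200 bp of R64 regions long enough to hold it, was found in 49.7% of 754 convergent, 16.1% of 1207 divergent and 28.9% of 2262 tandem regions, and in 28.9% of all 4223. Among convergent regions more than 4-fold higher in trf4Δ it was found in 14 of 42 (33.3%), and in 104 of 205 (50.7%) of those compared and not higher. The median GC content was 29.5% for convergent and 32.5% for the 42 higher regions, 36.5% for divergent and 34% for all intergenic regions, so base composition moved with these shares. Longer convergent regions were also more often higher, and the centre of a longer region lies farther from its ORFs. The parts of base composition and of length in these shares were not tested. GTAG was found in 61.9% of the 42 higher regions and 64.1% of all intergenic regions, GTAA in 95.2% and 89.1%, TCTT in 92.9% and 95.004%, and CTTG in 76.2% and 74.9%. TATATA reads the same on both strands, being its own reverse complement.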

How the data were processed

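RNA bound to Cbc2-TAP was sequenced from trf4Δ and wild-type cells, 1 library each, at 6 h of meiosis. The authors trimmed reads with Trim Galore 0.3.5, mapped them with Bowtie 0.12.7 to SGD1.01 (unique reads) or an SK1 assembly, and summed them in SeqMonk; the tables do not say which mapping they hold, nor whether strand was used. The deposited log2 values of the 100 bp segments are of whole, unnormalised reads, with 0.9 in place of 0 reads. In the deposited ORF table the log2 values of wild type had been scaled by 1.345.

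Read numbers were obtained as powers of 2 of these values. The 139 segments of the 37S pre-rRNA were removed, but they held no reads in either library, so this step did not change the totals. Wild type was multiplied by 1.34 to the trf4Δ total. Reads were summed per region. A region was compared where its mean per segment exceeded 64 normalised reads in either library, and called past 4-fold; 3 reads or fewer were set to 3 in ranking. Shares of reads were given Wilson and ratios exact (Clopper-Pearson) 95% intervals. CUTs were called by the study's steps, with segments joined up to 300 bp apart within a chromosome. Of the 6698 ORFs, 6000 were matched to R64 (RefSeq) by locus tag, and regions were annotated by their 2 ORFs, never by converted coordinates.

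The members, lists and tests were chosen with earlier results of these data known. Regions were named by rule: the 10 with most trf4Δ reads, the 10 highest and 5 lowest differences, the 5 with most wild-type reads, the 5 longest, and RNA gene regions. The smaller snoRNA regions, and the segments within regions, were named after their values were seen. The scripts ran under Python 3.11.15 with scipy 1.17.1 for intervals, pandas 2.3.3 and numpy 2.4.6 for tables and matplotlib 3.10.9 for plots.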

Additional observations from a re-analysis of the deposited data

How the results depend on the processing

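No paired analysis was possible because there was 1 library per genotype, and for the same reason no library could be left out. Results are given in the order higher regions, lower regions, median log2 difference, and percentage higher in convergent, divergent and tandem regions; 45 other values stayed within 1.5 times the count given in the report or, for shares and medians, within their own 95% intervals. With the median of compared segments set to 0 they were 112, 0, 1.43, 40.1%, 66.2% and 64.3%, with 1 lower segment and 161 regions overlapping a CUT. Without segments next to an ORF there were 3 lower regions, a median of 1.06, shares of 30.6%, 47.7% and 45.6%, 21 lower segments, 62 regions with a CUT, and 1.76% of trf4Δ and 0.849% of wild-type reads. With no noise cut-off there were 98 and 41 regions, shares of 9.11%, 23.6% and 25.0%, and 806 higher and 215 lower segments. At a cut-off 4 times as high there were 34 and 5 regions, a median of 0.10, shares of 28.8%, 54.0% and 56.6%, and 198 and 16 segments. At 8-fold there were 28 and 1 regions, shares of 8.02%, 20.7% and 22.2%, and 221 and 3 segments. At 2-fold there were 100 and 98 regions, shares of 28.7%, 57.2% and 54.9%, and 287 lower segments. With regions of at least 3 segments there were 39 and 7, a median of 0.73 and a convergent share of 23.2%. With the mean of segment log2 differences there were 9 lower regions, and 31.2% of divergent and 32.8% of tandem regions were higher. Without U1 and U2 in the totals 42.1% of tandem regions were higher, and convergent segments held 3.33% of trf4Δ and 2.11% of wild-type reads. With 40 kb left out at chromosome ends they held 2.45% and 1.68%. With only the ORFs annotated in R64, whose values are among those that stayed within these limits, there were 45 and 16 regions. The median was -0.60, the shares were 14.2%, 39.6% and 38.4%, and 276 convergent segments were higher. The median reversed under 4 settings, those given with a positive value; the cause was not tested, apart from the shift that the first setting makes by construction. Chosen after seeing the data, leaving out regions gave trf4Δ and wild-type shares of 1.57% and 1.58% without snoRNA genes, 1.20% and 1.18% without any RNA gene of R64, and 2.06% and 1.71% without the region of *PAM16* and *GSM1*.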
